A study of Mus musculus with 12 samples.

Results

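The mRNAs described here are those of Glg1, Surf4, Use1 and Hs2st1, 4 genes of the Golgi and secretory pathway among 16173 genes with listed cytosines. Their members are cytosines in which RNA bisulfite sequencing (RNA BS-seq) left reads unconverted. A site was taken from any list that annotates a cytosine to 1 of these genes, provided that both replicates of at least 1 condition had a coverage of at least 20 reads, at least 6 methylated reads and a methylation level of at least 10%. This gave 6 sites of 6462 in all libraries together (5340 outside chromosome MT), among 3452 listed cytosines of the 4 genes and 6384216 listed in all. The level is the share of reads that kept a C, so the levels chose the sites and are given as a description without a p-value.

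The cells were adult neural stem cells (NSCs) from the subventricular zone of wild type male C57BL/6 mice aged 6 to 8 weeks, and every culture was grown with B27, EGF and bFGF and with folic acid for 4 days. Total mRNA was taken at 1.5 μM (LF), 10 μM (MF) and 80 μM (HF), and polysome mRNA, pooled from the ribosome-rich part of a sucrose gradient, at the same concentrations (pLF, pMF and pHF). Each of the 6 conditions had 2 libraries, and all groups shared the genotype and the strain. Cultured NSCs are an in vitro model, and how the duplicates relate to separate animals was not given in the sources used here, so p-values measure the spread between these libraries only.

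Newly made secretory and membrane proteins leave the endoplasmic reticulum (ER) in COPII vesicles, pass through the Golgi, and are returned to the ER in COPI vesicles when they belong there. Surf4 is a cargo receptor that gathers soluble cargo at ER exit sites. Glg1 is a membrane sialoglycoprotein of the Golgi that binds fibroblast growth factors and selectins. Use1 is a SNARE protein of the ER that takes part in the fusion of COPI vesicles with the ER. Hs2st1 is a Golgi enzyme that adds 2-O-sulfate to heparan sulfate, a chain through which NSCs bind growth factors. In RNA BS-seq, bisulfite converts unmethylated cytosines, while 5-methylcytosine (m5C) is read as C, and the methyltransferases NSUN2 and NSUN6 are known to methylate sites in mRNA.

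The sequences around the 6 cytosines are shown because their context is what a methyltransferase reads. Each run holds 10 bases on either side of the site in GRCm38.p6 (mm10), 5′ to 3′ on the strand of the gene, with the site in capitals, and all 6 were identical to the context deposited with the calls.
Surf4, chr2:26920687-26920707, minus strand: agagaacagaCagacttagaa
Glg1 proximal, chr8:111156483-111156503, minus strand: tcccctttggCgagtttgggc
Glg1 distal, chr8:111155340-111155360, minus strand: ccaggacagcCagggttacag
Use1 exon 8, chr8:71369163-71369183, plus strand: cagtcagcatCcgagctagac
Use1 exon 9, chr8:71369626-71369646, plus strand: ctgctgtgggCcatgctcatt
Hs2st1, chr3:144434216-144434236, minus strand: cttacattgcCtaaaatacac
Only the distal Glg1 site had GGG at bases 2 to 4 downstream, the G-rich context known from NSUN2 sites. This triplet stood there in 2.47% of the 5340 sites outside chromosome MT and in 1.77% of 771135 other cytosines with a level under 5% in both MF libraries. None of the 6 had TCCA directly downstream, the context known from NSUN6 sites, which 0.506% of the sites and 0.776% of the low-level cytosines had. The 5340 sites precede the later filters of the study, so these shares are not those of its filtered sites. The paper reports a G-rich triplet downstream as dominant among its filtered m5C sites. Both motifs were read on the strand of the site alone, and since they use the same bases no cytosine can have both.

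By GENCODE vM21, 4 of the 6 sites lay in a 3′ UTR and both Use1 sites in coding sequence. The Surf4 site (position 26920697) is base 1208 of the 1865 bases of the 3′ UTR, in exon 6 of 6. The proximal Glg1 site (position 111156493) and the distal Glg1 site (position 111155350) are bases 1401 and 2544 of a 3′ UTR of 3473 bases, both in exon 26 of 26. The Hs2st1 site (position 144434226) is base 262 of a 3′ UTR of 4782 bases, in exon 7 of 7. The Use1 sites are in exon 8 (position 71369173) and in the last exon, exon 9 (position 71369636), the latter 96 bases from the transcript end.

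Summed coverage of the listed cytosines was between 1186213013 and 2857966129 per library. Of the total mRNA libraries, the 2 labelled HF had 6369 and 5182 sites that met the criteria, against 2150 to 2641 in LF and MF. Polysome libraries had 1475 to 2840, except pLF replicate 2 with 4072 and pHF replicate 2 with 5592. That last library stood apart with 38353 cytosines above a level of 90%, against at most 3465 elsewhere. For the libraries labelled HF, the read counts were not those that the study lists for its HF sites, whereas in the other conditions most of the listed counts were found in the matching library. Values of HF may therefore not be those of the cultures at the highest concentration, and every comparison with HF carries this limit. Libraries are named as labelled, and the site orders, the gene coverage and the 3′ UTR segments are also given over the 8 libraries of LF, MF, pLF and pMF. Summed over the list, neural stem cell markers took between 6576 and 10189 ppm of the coverage in all 12 libraries (6 of 7 markers listed). Vim, an intermediate filament gene that other cell types also use, took most of it (4940 to 9414 ppm), while Nes took 1770 to 2782 ppm in total and 387 to 912 in polysome mRNA. Egfr took 127 to 164 ppm in total and 1.87 to 15.2 in polysome mRNA, and Sox2 was not listed under its own name. Astrocyte markers (3 of 4 listed) took 413 to 831 ppm, nearly all of it Aldoc, while Gfap and Aqp4 were each at most 0.254 ppm. Neuronal markers took at most 6.13 ppm, microglial markers at most 25.3 ppm (1 of 3 listed, Cx3cr1), and muscle markers were at 0. The fibroblast list took 2135 to 4266 ppm in total mRNA, highest in the libraries labelled HF, and 1204 to 3063 ppm in polysome mRNA. Col1a2 made up nearly all of it, while Col1a1, Col3a1, Dcn and Lum were each at most 14.1 ppm. Their part in the results was not tested.

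The site of Surf4, the cargo receptor, was 1.69 to 2.24 times as methylated in polysome mRNA, in which every library was above every total mRNA library. It met the criteria in both replicates of pLF, pMF and pHF alone, so it was chosen through the fraction in which it is high, and its excess there is in part fixed by the 10% minimum. LF had 6.89 and 7.92%, MF had 7.33 and 6.76%, and HF had 8.55 and 10.3%. Polysome levels were 16.5 and 16.7% for pLF, 13.3 and 16.2% for pMF, and 16.2 and 15.6% for pHF. Group means were 7.40% ± 0.732 (SD, n = 2) for LF and 16.6% ± 0.120 for pLF, 7.05% ± 0.403 for MF and 14.8% ± 2.05 for pMF, and 9.43% ± 1.24 for HF and 15.9% ± 0.425 for pHF. Coverage at the site was 427 to 680 reads in total and 963 to 1404 in polysome mRNA. Without the HF and pHF libraries the order was the same, since LF and MF reached at most 7.92%. Among the polysome conditions pLF was above pMF by 1.83 percentage points, less than the SD of pMF.

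The 2 sites of Glg1, the Golgi sialoglycoprotein, were also higher in polysome mRNA at each folate concentration. At the proximal site LF had 9.42 and 11.2%, MF had 8.48 and 8.41%, and HF had 12.9 and 11.9%. In the polysome libraries pLF had 19.3 and 18.9%, pMF had 17.5 and 17.4%, and pHF had 20.3 and 17.5%, so that the fractions did not overlap. Its difference was 8.75 percentage points at LF, 9.03 at MF and 6.53 at HF. The proximal site met the criteria in both replicates of HF, pLF, pMF and pHF, but not of LF or MF. Without HF it was chosen through the polysome groups alone, in which it is high. Its excess over LF and MF may thus be in part fixed by the level minimum. By mean level the order of the conditions was MF, LF, HF, pMF, pHF and pLF, and the levels of neighbours did not overlap except pHF with pLF. The gap from pMF to pHF was only from 17.523% in pMF replicate 1 to 17.548% in pHF replicate 2. Their Wilson intervals overlapped (15.7 to 19.5 and 15.9 to 19.3%), as did those of the nearest libraries of MF and LF and of LF and HF. The share of all sites with such an order was not counted, so nothing about folate is read from it. Without the HF and pHF libraries the order of the rest was the same.

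The distal site was the most methylated of the 6 among those read in all 12 libraries. LF had 22.1 and 20.3%, MF had 25.4 and 21.8%, and HF had 27.5 and 26.4%. Polysome levels were 24.6 and 38.0% for pLF, 38.1 and 37.1% for pMF, and 41.6 and 37.7% for pHF. Thus 5 of the 6 polysome libraries lay above 37%, while pLF replicate 1 fell within the range of total mRNA. Without the HF and pHF libraries it still did, since total mRNA reached 25.4% in MF replicate 1. Leaving pLF replicate 2 out reduced the difference of pooled levels at LF from 11.1 to 3.40 percentage points and moved that of pLF from pMF from -5.27 to -12.97. The difference of HF from MF fell from 3.55 to 1.62 points without MF replicate 2. Without replicate 2 of pHF, the level in the remaining pHF library was 41.6%. Coverage at this site was 166 to 401 reads in polysome mRNA and 1189 to 2050 in total mRNA. At the proximal site the ranges overlapped (921 to 2100 and 873 to 1512).

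Use1, the ER SNARE, had a site in exon 8 whose level differed less between the fractions and was highest in the libraries labelled HF. LF had 9.99 and 10.6%, MF had 8.53 and 12.2%, and HF had 19.0 and 17.1%. Polysome levels were 12.7 and 13.4% for pLF, 11.3 and 14.4% for pMF, and 14.5 and 14.9% for pHF. The difference of polysome from total mRNA was 2.79 percentage points at LF and -3.37 at HF, both without overlap, and at MF the groups overlapped. Without the HF libraries total mRNA ranged from 8.53 to 12.2%. LF replicate 1, at 126 of 1261 reads, was just under the 10% used to choose sites, and MF replicate 1 was also under it. The site thus met the criteria in both replicates of HF, pLF, pMF and pHF, but not of LF or MF. Its excess in pLF over LF may be in part fixed by the level minimum. The share of all sites without overlap in these contrasts was not counted, so nothing is read from it.

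The second Use1 site, in exon 9, met the criteria in the libraries labelled HF alone. There 11 of 30 reads (36.7%, 95% Wilson interval 21.9 to 54.5) and 19 of 29 reads (65.5%, 47.3 to 80.1) were unconverted. LF replicate 1 had 3 of 24 reads, pLF replicate 2 had 1 of 679, and the other libraries did not list the cytosine. Cytosines within 25 bases were unconverted at 7.69% in HF replicate 1 (1 cytosine) and 0.496% in HF replicate 2 (4 cytosines, 1 of them at 18.2%). Wilson intervals cover counting error only, since the reads carry no molecular identifiers.

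The site of Hs2st1, the heparan sulfate enzyme, differed between the pHF replicates by more than their counting error. It had 13.7 and 10.8% in pLF, 1.19 and 4.55% in pMF, but 14.1 and 1.13% in pHF. In total mRNA it was at 1.82 and 0.562% in LF and was not listed in MF or HF. A listed cytosine has at least 1 unconverted read at a coverage of at least 10, so an unlisted one may lack coverage or unconverted reads. The pHF replicates had 28 of 198 reads (Wilson interval 9.97 to 19.7%) and 5 of 442 reads (0.484 to 2.62%), and their intervals did not overlap. Only pLF met the criteria in both replicates. In pHF the lower value came from replicate 2, the library that stood apart.

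**Figure D1:**
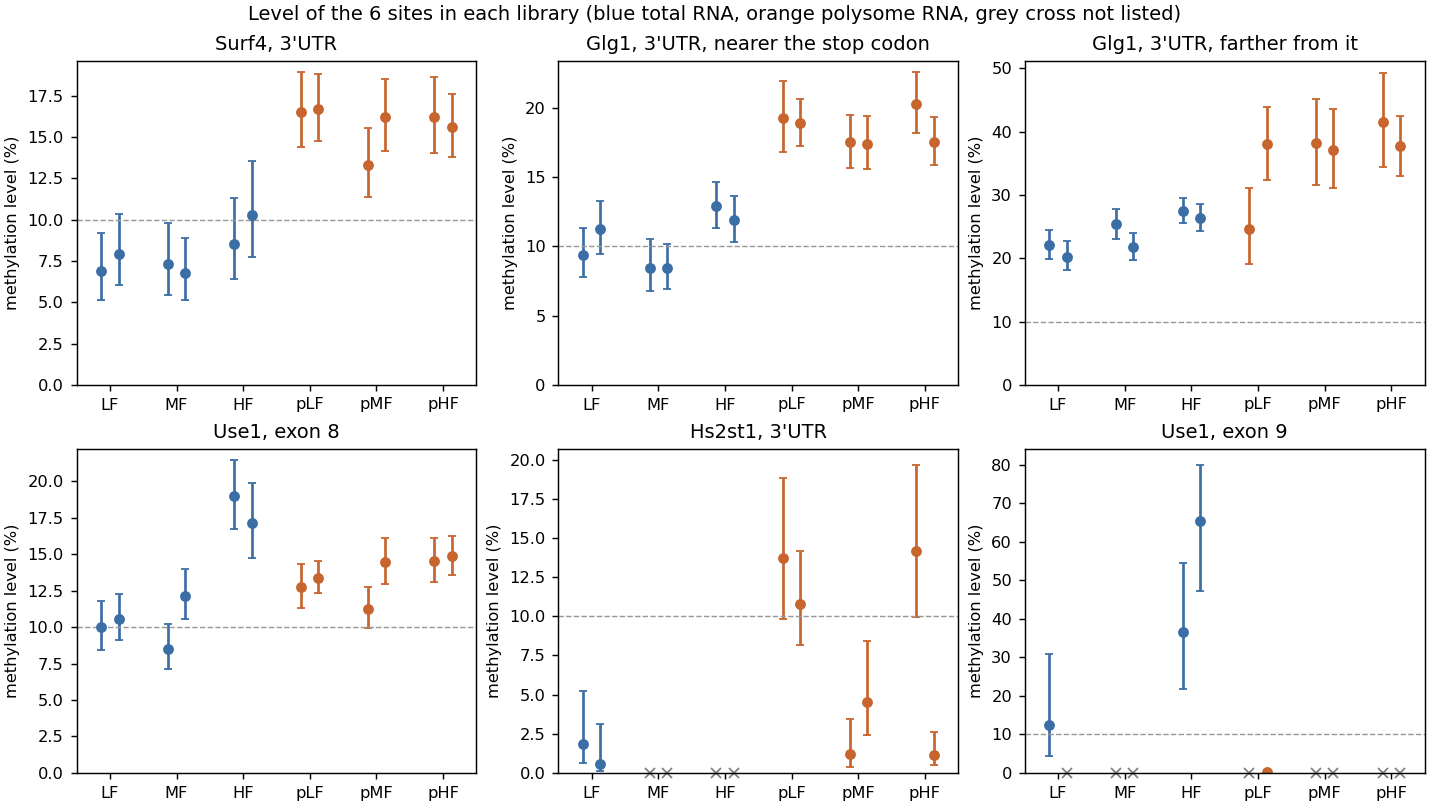
Methylation level (%) of each of the 6 sites in the 12 libraries, grouped by condition, with 95% Wilson intervals as bars the 10% criterion as a dashed line and a grey cross where a site was not listed. All polysome points of Surf4 and of the proximal Glg1 site lie above all total points, while for Use1 exon 8 the libraries labelled HF are the highest.

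Of the members just outside the criteria, 6 cytosines passed in 1 library but not in its replicate. The highest was an Hs2st1 cytosine (chr3, position 144465279) with 14 of 62 reads (22.6%) in HF replicate 1, and the lowest a Glg1 cytosine (chr8, position 111188840) with 10.9% in pLF replicate 2. Among cytosines listed in all 12 libraries the next by mean level were both in Use1, at positions 71367340 (4.39%) and 71367839 (3.65%) of chromosome 8.

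Most of the nuclear sites that could be compared over all 12 libraries had a higher level in polysome than in total mRNA. This is given as a description since levels chose the sites. All 12 libraries had 20 or more reads at only 333 of the 5340 sites outside chromosome MT, and the rest were not compared. Of the 333, 282 (84.7%) had a higher mean level in polysome than in total mRNA. All 6 polysome libraries were above all 6 total libraries at 64 of the 333 sites, or 19.2%. Surf4 and proximal Glg1 were among them and distal Glg1 and Use1 exon 8 were not, from which nothing is read because the same levels chose these sites. The reverse order was found at 4 of the 333. Over the 8 libraries of LF, MF, pLF and pMF, 257 sites (77.2%) had the higher mean in polysome mRNA, and all 4 polysome libraries were above all 4 total libraries at 127 sites (38.1%). The Surf4 and proximal Glg1 sites followed each other over the 12 libraries (Pearson r = 0.97 across libraries, as a measure of likeness only). The sites most like Surf4 after proximal Glg1 were in Bag6 (r = 0.96), a chaperone of membrane protein insertion, and Ccdc107 (0.96). Those most like proximal Glg1 besides Surf4 were in Thbs3 (0.98), a thrombospondin, and Fbln2 (0.97), a fibulin of the extracellular matrix. For distal Glg1 they were in Rnpep (0.95), Glod4 (0.94) and Ybx3 (0.94), and for Use1 exon 8 in Rpl23 (0.92), Gm9794 (0.90) and Amz2 (0.89), each with 332 sites compared and with all libraries shared.

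Around 5 of the sites the neighbouring cytosines were unconverted in a small share of reads. Within 25 bases the unconverted share was 0.123 to 0.309% at the Surf4 site and 0.0946 to 0.245% at the proximal Glg1 site over the 12 libraries. It was 0.131 to 1.17% at the distal Glg1 site, with a single neighbour at 5.19% in pMF replicate 1, and 0.170 to 0.414% at Use1 exon 8, with a single neighbour at 2.06%. At the Hs2st1 site no neighbour exceeded 1.32% in the 8 libraries that listed one. None was listed in MF replicate 1, pLF replicate 1 or either pHF library. The highest levels of this site, 14.1% in pHF replicate 1 and 13.7% in pLF replicate 1, thus had no neighbour to compare.

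To see whether a whole mRNA was less converted in polysome libraries, the unconverted share was taken over the other cytosines of each gene that all 12 libraries listed. Surf4 (13 cytosines) had 0.0505 to 0.132% in total and 0.0906 to 0.123% in polysome mRNA, overlapping ranges (exact two-sided permutation of 6 against 6 libraries, p = 0.245, adjusted over all genes 0.521). Glg1 (7 cytosines) had 0.218 to 0.475% in total mRNA, with a median of 0.280%, and 0.442 to 0.891% in polysome mRNA, with a median of 0.609%. The mean difference of 0.323 percentage points (exact permutation p = 0.00433) did not pass after adjustment over 1095 genes (p = 0.0729). Without the HF and pHF libraries it was 0.277 points (exact permutation p = 0.0286, the smallest that 4 against 4 libraries can give, adjusted 0.0769), and over every listed cytosine it was 0.0564 points (exact permutation p = 0.123). Use1 (5 cytosines) had 1.52 to 3.42% in total and 1.17 to 1.88% in polysome mRNA (exact permutation p = 0.234, adjusted 0.510). Its values include the cytosines at 71367340 and 71367839. Thus 0 of 3 members were called, beside 4.57% of all genes. At an unadjusted p under 0.05 the count was 1 (Glg1), from which nothing is read, since the share of all genes there was not counted. The median gene was at 0.0848 to 0.124% in total and 0.0873 to 0.115% in polysome mRNA. Hs2st1 had no cytosine listed in all 12 libraries. Over every listed cytosine it had 0.134 to 0.273% in total and 0.217 to 0.455% in polysome mRNA (exact permutation p = 0.00433, adjusted 0.0141), beside 40.4% of genes called higher over such sums, in which a cytosine with few reads counts only where 1 was unconverted.

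Gene coverage, the sum of reads over cytosines listed in all 12 libraries, was compared with edgeR over 1111 genes with at least 5 such cytosines. Values are reads per cytosine scaled to the same effective library size. A share of a library cannot tell less mRNA of a gene from more of the others, and fewer cells of a type and less RNA per cell cannot be told apart in bulk samples.

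Use1 coverage was higher in polysome than in total mRNA at each folate concentration. LF had 1385 and 1467 reads, MF had 1326 and 1356, and HF had 1479 and 1443. Of the polysome libraries, pLF had 2096 and 2727 reads, pMF had 2224 and 2174, and pHF had 2263 and 1943, with no overlap between the fractions. The share of all genes without such overlap was not counted, so nothing is read from it. The log2 difference was 0.76 ± 0.14 (SE, n = 2 against 2) at LF (edgeR adjusted p = 0.000615), 0.71 ± 0.14 at MF (adjusted p = 0.000882) and 0.53 ± 0.14 at HF (adjusted p = 0.00503). Of all genes 33.0%, 31.7% and 37.0% were called higher in these comparisons, so a call was common. Over the 8 libraries without HF and pHF it was 0.79 at LF and 0.76 at MF (edgeR adjusted p = 0.00103 and 0.00116). Over every listed cytosine it was 1.00 at LF, 1.61 at MF and 0.77 at HF, and the call at HF was lost (edgeR adjusted p = 0.0176, 0.00105 and 0.0543).

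Surf4 coverage showed no difference past the threshold. It was 2742 to 3097 reads in total mRNA and 2459 to 3145 in polysome mRNA. Its log2 difference was 0.04 ± 0.12 at LF, -0.01 ± 0.12 at MF and -0.20 ± 0.12 at HF (edgeR adjusted p = 0.794, 0.950 and 0.133). Over the 8 libraries without HF and pHF it was 0.07 at LF and 0.03 at MF, where the sign was turned (edgeR adjusted p = 0.606 and 0.820). Summed over every listed cytosine, whose number varied from 313 to 600 between libraries, the difference was 1.15, 1.22 and 1.59 (edgeR adjusted p = 0.000876, 0.000624 and 7.31e-05), beside 22.1%, 21.5% and 22.1% of genes called higher over such sums. Without pLF replicate 2 in the shared fit, the difference at HF was -0.22 (edgeR adjusted p = 0.0446), beside 39.8% of genes called lower.

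Glg1 coverage was lower in polysome mRNA at LF and did not pass the threshold at MF and HF. LF had 2170 and 1895 reads, MF had 2173 and 2131, and HF had 1903 and 2001. Of the polysome libraries, pLF had 1241 and 1465 reads, pMF had 2132 and 1866, and pHF had 1486 and 1678. The log2 difference was -0.59 ± 0.13 at LF (edgeR adjusted p = 0.00222), -0.11 ± 0.13 at MF (adjusted p = 0.485) and -0.30 ± 0.13 at HF (adjusted p = 0.0529). Of all genes 31.0%, 31.0% and 35.3% were called lower. The difference between LF and MF in this contrast was -0.48 ± 0.18 and did not pass (adjusted p = 0.987). Over the 8 libraries without HF and pHF Glg1 differed by -0.56 at LF and -0.07 at MF (edgeR adjusted p = 0.00407 and 0.637). The call at HF was gained without pHF replicate 2 (-0.39, adjusted p = 0.0255) or either pLF replicate (adjusted p = 0.0232 and 0.0129), beside 34.3%, 38.2% and 39.8% of genes called lower. The call at LF was lost over the cytosines listed in the 4 libraries of the comparison (-0.34, edgeR adjusted p = 0.144), where the values at MF and HF were 0.20 and 0.20 (adjusted p = 0.0860 and 0.119). Over every listed cytosine Glg1 was at -0.83 at LF, 0.08 at MF and 0.10 at HF (edgeR adjusted p = 0.0109, 0.811 and 0.739). There 20.5% of genes were called lower at LF.

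Hs2st1 could be compared over cytosines listed in the 4 libraries of a contrast, a choice made after the data were seen. At LF it had 2559 and 3151 reads per cytosine in total and 1167 and 1444 in polysome mRNA (26 cytosines, unscaled). At MF it had 2349 and 2669 against 706 and 718 (11 cytosines), and at HF 1789 and 1607 against 846 and 1107 (13 cytosines). After scaling, Hs2st1 was lower in polysome mRNA by a log2 difference of -0.85 ± 0.17, -1.16 ± 0.07 and -0.86 ± 0.13 (edgeR adjusted p = 0.00684, 0.000116 and 0.00154). Of all genes 26.6%, 38.2% and 38.7% were called lower in these fits. Over every listed cytosine the differences were -0.84, -0.64 and -0.46 and did not pass (adjusted p = 0.0633, 0.152 and 0.289).

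**Figure D2:**
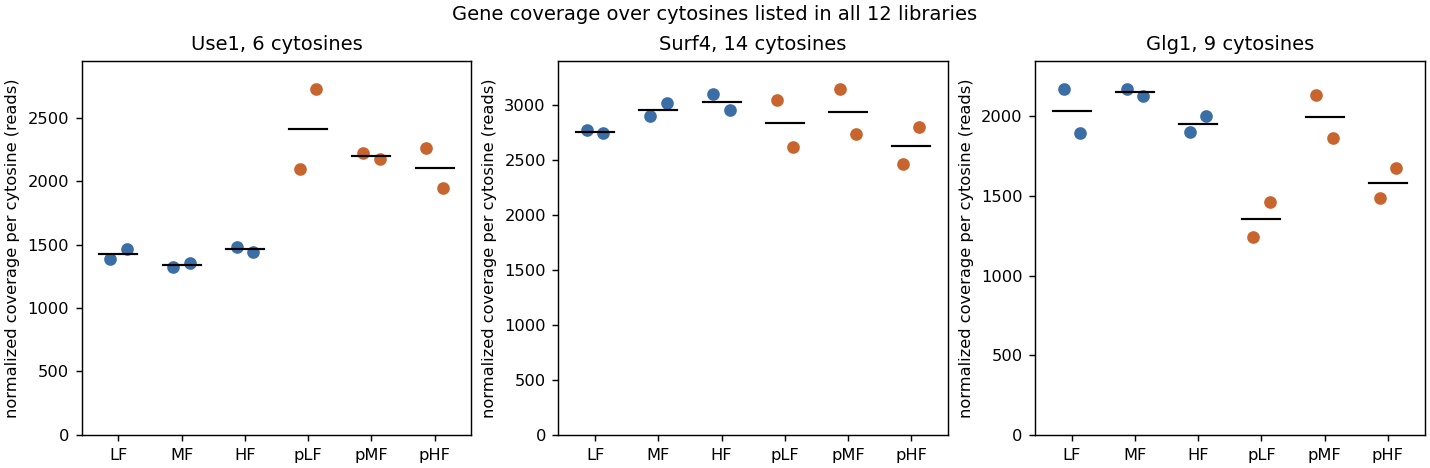
Normalized coverage per cytosine (reads) of Use1, Surf4 and Glg1 in each library, with the mean of the 2 libraries as a line and total mRNA in blue and polysome mRNA in orange. Use1 is higher in all polysome libraries, with 1943 reads in the lowest of them against 1479 in the highest total library, while the fractions overlap for Surf4 and Glg1. The share of all genes without such overlap was not counted.

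Between folate concentrations no member was called in edgeR over the cytosines shared by all libraries. For LF against MF 0 of 3 members and 0.0% of 1111 genes were called (edgeR; 20 genes at an unadjusted p under 0.05, 0 by DESeq2 and by limma). For pLF against pMF 0 of 3 and 0.0% were called (142 at an unadjusted p under 0.05, 24 by DESeq2, 0 by limma). Glg1 had the largest difference of the members there, -0.56 ± 0.13 (edgeR adjusted p = 0.168), or -0.58 over the 8 libraries without HF and pHF (adjusted p = 0.175). It was called by DESeq2 (-0.57, adjusted p = 0.00432), beside 1.44% of genes called lower, and by edgeR without pLF replicate 2 (-0.66, adjusted p = 0.00891), beside 8.1%. Without that library 197 of the 1111 genes were called in either direction, against 0 with it. For pHF against pMF, 1 of 3 members and 204 of 1111 genes had an unadjusted edgeR p under 0.05. After adjustment 0 of 3 members were called, beside 0.63%. That share is 7 genes, and leaving out 1 library of the shared fit moved it from 0 (without pMF replicate 1; 89 at an unadjusted p under 0.05) to 119 (without pLF replicate 1), with 107 without pLF replicate 2, 19 without pHF replicate 1, and 79 by DESeq2. For HF against MF 0 of 3 were called, also at an unadjusted p under 0.05, beside 67.1%. Over cytosines listed in those 4 libraries all 4 members were called, beside 83.4%, with Use1 higher (log2 difference 0.41) and Glg1, Hs2st1 and Surf4 lower (-0.57, -0.57 and -0.30) in the libraries labelled HF.

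Coverage along the Glg1 mRNA had a different shape in the fractions. Values are the mean coverage of listed cytosines in stretches of 250 bases, scaled as for the gene coverage to the effective library size over cytosines listed in all 12 libraries. At 1750 to 1999 bases past the stop codon they were 654 to 1041 reads in total and 38.8 to 107 in polysome mRNA. At 1250 to 1499 bases, the stretch that holds the proximal site, they were 804 to 1494 in total and 988 to 1830 in polysome mRNA. At 2500 to 2749 bases, where the distal site lies, they were 1111 to 1985 and 414 to 784. Scaled to the library size over every listed cytosine instead, an alternative chosen after seeing the data, the ranges at the distal site overlapped (826 to 1510 and 600 to 1184), while at 1750 to 1999 bases they did not (487 to 792 and 58.7 to 171). The first 250 bases of the 3′ UTR had 1664 to 3594 reads in polysome against 154 to 1287 in total mRNA. At 250 to 499 bases it was 87.1 to 200 reads in 5 polysome libraries, against 348 to 1135 in total mRNA, and these ranges overlapped under the other scaling (132 to 382 and 236 to 859). At 2250 to 2499 bases, between the sites, the ranges overlapped, with 561 to 858 reads in total and 601 to 1096 in polysome mRNA, and under the other scaling polysome mRNA was higher (381 to 708 and 909 to 1738). The polysome values at 1750 to 1999 bases rest on as few as 1 listed cytosine per library, and those at 250 to 499 on as few as 2.

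**Figure D3:**
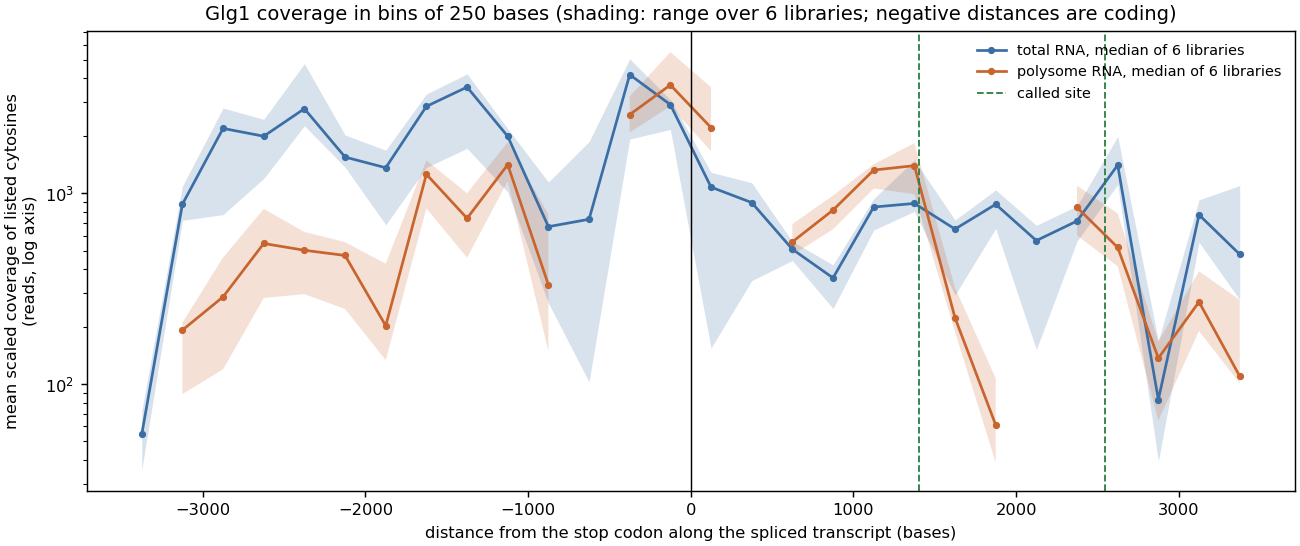
Mean scaled coverage (reads) of listed cytosines along the spliced Glg1 mRNA in bins of 250 bases (log axis), by distance from the stop codon (solid line). Lines are the median and shading the range of 6 total (blue) and 6 polysome (orange) libraries, with gaps where a library listed no cytosine. The 2 sites are dashed, and the polysome curve drops from a median of 1396 to one of 61.1 reads after the proximal site.

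The 3′ UTR was split at its midpoint into a 5′ and a 3′ segment, and the log2 ratio of mean coverage in the 3′ to that in the 5′ segment was compared with limma over 1240 genes with at least 5 listed cytosines per segment in every library, a comparison chosen after the Glg1 profile had been seen. For Glg1 the 5′ segment holds the proximal and the 3′ segment the distal site. The ratio was 0.10, -0.13, 0.06, 0.05, 0.25 and 0.62 in LF, MF and HF, and -2.43, -1.76, -2.32, -2.46, -1.41 and -1.67 in pLF, pMF and pHF, in the order of condition and replicate. Unscaled mean coverage of the 3′ segment was 166 to 580 reads in polysome mRNA, against 892 to 1840 in the 5′ segment. The difference was -2.08 ± 0.33 at LF (limma adjusted p = 0.00425), -2.45 ± 0.33 at MF (adjusted p = 0.00159) and -1.97 ± 0.33 at HF (adjusted p = 0.00182). Over the 8 libraries without HF and pHF it was -2.08 and -2.45 (limma adjusted p = 0.00994 and 0.00501). Of all genes 3.79%, 4.76% and 10.2% were called lower in these comparisons, and 16, 8 and 58 of 1240 genes had a lower value than Glg1. The median gene moved the other way, from -0.31 to -0.22 in total mRNA to 0.14 to 0.31 in polysome mRNA. The ratio of Surf4 was -0.33 to 0.23 in total and -0.27 to 0.37 in polysome mRNA and was not called (adjusted p = 0.562, 0.436 and 0.375). The 3′ UTR of Use1, with 23 bases, was too short, and Hs2st1 had as few as 3 listed cytosines in a segment.

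In coding sequence the segments are given as a description, with no test. The log2 ratio of the 3′ to the 5′ segment of the coding sequence was -0.43 to 0.74 for Glg1 in total and 2.04 to 3.14 in polysome mRNA. It was -1.61 to -1.13 and -0.40 to 0.30 for Surf4, and -0.91 to -0.18 and 0.15 to 0.51 for Use1. For Hs2st1 it was -0.43 to 0.73 and 0.40 to 2.15. The median of 4179 genes was also higher in polysome mRNA, at 0.38 to 0.52 against 0.01 to 0.03 in total mRNA. Of the 9 Glg1 cytosines behind the gene coverage, 4 were coding, 2 in the 5′ and 3 in the 3′ segment of the 3′ UTR. Of the 14 of Surf4, 9 were coding, and all 6 of Use1 were.

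**Figure D4:**
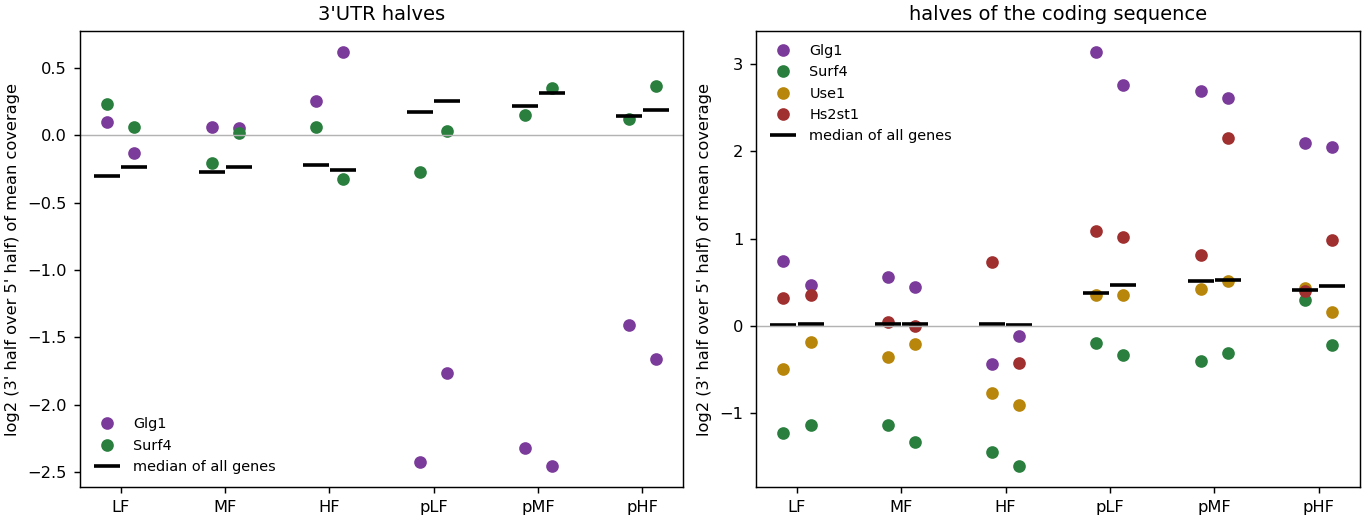
Log2 ratio of mean coverage in the 3′ over the 5′ segment of the 3′ UTR (left) and of the coding sequence (right) for each library, with the median of all genes as black bars. Colours mark the genes. In the 3′ UTR Glg1 falls to between -2.46 and -1.41 in polysome libraries while the median gene rises. In coding sequence Glg1 rises to between 2.04 and 3.14.

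Of a list of 79 genes of the secretory pathway, 23 had enough shared cytosines, and their calls between polysome and total mRNA fell in both directions. At LF 8 were higher (beside 33.0% of all genes), 9 lower (31.0%) and 6 not called. At MF 9 were higher (31.7%), 8 lower (31.0%) and 6 not called, and at HF 9 were higher (37.0%), 7 lower (35.3%) and 7 not called. The median log2 difference of the list was -0.18, -0.01 and 0.05, against 0.01, -0.00 and 0.01 over all 1111 genes. Genes called in the same direction at all 3 concentrations were Kdelr2, Gorasp2, Tmed9, Use1 and Sar1a on the higher side and Copz1, Arcn1, Sulf1, Lman2 and Kdelr1 on the lower side. The share of all genes so called was not counted, so nothing about the pathway is read from these names.

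Kdelr2, a receptor that returns KDEL proteins from the Golgi, had the highest mean log2 difference, 1.41, with 2190 reads per cytosine in the median total library and 5366 in the median polysome library. Its paralog Kdelr1 had a mean difference of -0.56, with 2151 and 1449 reads. Gorasp2, a stacking protein of the Golgi matrix, had differences of 0.63, 0.61 and 2.16, the last against the libraries labelled HF. Tmed9, a p24 cargo receptor, had a mean of 0.67, and Sar1a, the GTPase that starts COPII coats, had 0.63. Of the COPI coat, Copz1 had a mean of -1.32 and Arcn1 one of -0.98. Lman2, a lectin cargo receptor, had -0.73, and Sulf1, which removes sulfate from heparan sulfate, had -0.85. Among the receptors of the same list as Surf4, 8 were tested, and Tmed2 was lower at LF and MF (-0.54 and -0.68) and higher at HF (0.40).

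**Figure D5:**
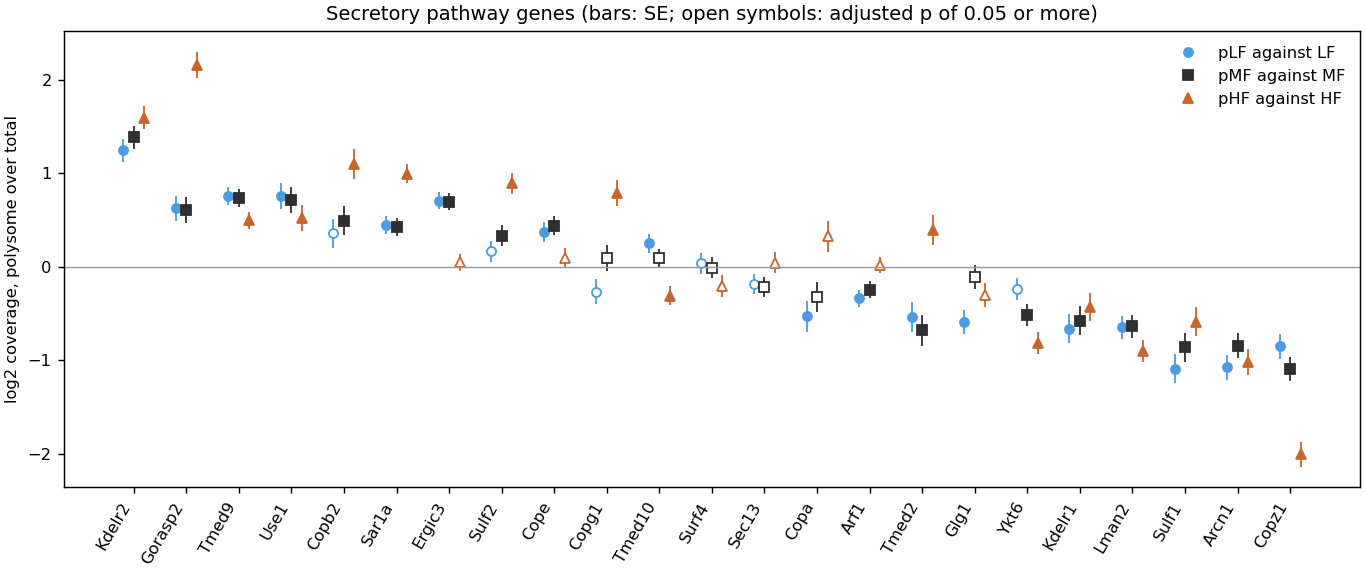
Log2 coverage in polysome over total mRNA for 23 secretory pathway genes at each folate concentration, ordered by the mean of the 3, with SE as bars and open symbols for an adjusted p of 0.05 or more. Use1 lies among the higher genes (mean 0.67), Surf4 near 0 and Glg1 below it (mean -0.33).

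The genes whose coverage over the 12 libraries was most like Glg1 were Kdelr1 (Pearson r = 0.86 across libraries), Scd2 (0.85), a fatty acid desaturase, and Sptan1 (0.85), a spectrin. For Use1 they were Gpx4-ps2 (0.99), a pseudogene whose reads cannot be told from those of its parent with certainty, Sdf4 (0.98), a calcium-binding protein of the Golgi lumen, and Uqcr11 (0.98), a subunit of respiratory complex III. For Surf4 they were Sema5b (0.85), a semaphorin, Ap1m1 (0.82), a subunit of the AP-1 clathrin adaptor of the Golgi, and Ppp2r1a (0.82), the scaffold of protein phosphatase 2A. Each was taken from 1110 genes, and the likeness is given as a description.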

How the data were processed

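RNA BS-seq was done on 12 libraries of total and polysome mRNA, with 2 per condition. Trimming by the authors used fastp, unique alignment to mm10 used meRanGh, and calling and annotation of cytosines used meRanCall and meRanAnnotate. Per the file headers, each list gives counts of reads (coverage) and of methylated reads, and the level as a fraction, which the authors deposited as methylated reads over methylated plus converted reads. The lists precede the later filters of the study. The submitters' notes name R 4.1.1.

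The lists were read with Python 3.11.15, pandas 2.3.3 and scipy 1.17.1. Coverage was tested with edgeR 4.0.16 (quasi-likelihood, TMM, all 12 libraries), 3′ UTR segments with limma 3.58.1, and DESeq2 1.42.0 was an alternative, in R 4.3.3. Reads that span several cytosines are counted at each, so summed coverage is not a count of molecules. The unconverted share was adjusted over all genes rather than over the members. Fisher's exact test and limma on site levels were planned and are not reported, since the levels chose the member sites. In all tests the threshold was an adjusted p of 0.05. Listed coverage reached at most 49682 reads per cytosine. Simulated data for pMF against MF gave back 99% of 100 genes changed by 1 log2 unit in coverage (1111 genes, 9 false calls). The test of 3′ UTR segments gave back 11% and 66% of 100 genes each, changed by 1 and 2 (1240 genes, 4 false calls). Only 100 genes per size of change were altered, whereas 62.6% of genes were called for pMF against MF in coverage. Recovery under such widespread change was not simulated. With 2 libraries against 2, no exact p under 0.333 is possible for a single value.

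The members, the gene lists and the tests were chosen with earlier results of these data known. Named besides the members are the 3 genes or sites most alike by Pearson correlation and the 5 highest and 5 lowest pathway genes called in the same direction at all 3 concentrations. Tmed2 was added after its values were seen. Alternatives included other cytosine sets, normalizations, tests, minimums, the replicate block, 8 libraries without HF and pHF, and leaving out each replicate. mRNA-seq data were not analysed here.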

Additional observations from a re-analysis of the deposited data

Results flagged for a closer look

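The level of the Use1 site in exon 8 was higher in both pLF libraries than in both LF libraries, by 2.79 percentage points, and lower in both pHF libraries than in both libraries labelled HF, with a difference of -3.37 points. The difference between the 2 contrasts was not tested. The libraries labelled HF stood apart from the other total mRNA libraries in their number of called sites, and their part in this was not tested.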

How the results depend on the processing

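Every count below is of members or list genes called. Over every listed cytosine, the members called were 2 of 4 for pMF against MF (1 of 3 in the main test), beside 42.0% of 10601 genes. For pLF against LF over every listed cytosine, 2 were higher and 1 lower (1 and 1 of 3 in the main test), beside 42.7%. Of 78 pathway genes tested there, 16 were higher and 22 lower at LF (20.5% and 28.2%, beside 22.1% and 20.5% of 10601 genes), 19 and 17 at MF (24.4% and 21.8%, beside 21.5% and 20.5%) and 27 and 13 at HF (34.6% and 16.7%, beside 22.1% and 23.1%). Surf4 turned to 1.22 at MF and 1.59 at HF there, and Glg1 turned to 0.08 and 0.10 without a call. With no minimum of cytosines, 14 of 35 pathway genes were lower at LF (40.0%, beside 31.6% of 2426 genes) and 16 higher at HF (45.7%, beside 36.9%). Over the cytosines listed in the 4 libraries of a contrast, chosen after seeing the data, 2 of 4 members were called at MF (beside 76.4% of genes) and 2 at HF (75.6%). For HF against MF 4 of 4 were called (83.4%), and Surf4 turned to -0.30. Of 46 pathway genes, 14 were lower at LF (30.4%, beside 26.6% of all genes), 21 lower at MF (45.7%, beside 38.2%) and 20 higher and 17 lower at HF (43.5% and 37.0%, beside 37.0% and 38.7%). DESeq2 size factors and DESeq2 called 2 members at HF (799 and 837 of all 1111 genes), and DESeq2 1 for pLF against pMF (24 of 1111). The replicate block changed no call of a member in the coverage tests, with Glg1 at -0.59, -0.11 and -0.30 under it. Deviations of replicates with the same number correlated at -0.46 to 0.24, so the numbers were not taken to pair libraries.

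Without pLF replicate 2 in the shared fit, the log2 difference at HF was -0.32 for Glg1 and -0.22 for Surf4. For pLF against pMF it was -0.66 for Glg1. Site levels carry no test, since they chose the sites. A level minimum of 20% left 1 member site, distal Glg1, to compare in each of the 7 contrasts. Leaving out each replicate gave 2 members with called coverage at LF and 1 at MF, 1 to 3 at HF, and 0 to 1 for pLF against pMF. It gave 6 to 9 and 7 to 9 pathway genes higher and lower at LF, 7 to 9 and 6 to 9 at MF, and 8 to 9 and 5 to 9 at HF. With no replicate left out, 64.0%, 62.6% and 72.3% of 1111 genes were called in either direction at LF, MF and HF. For pLF against pMF 0.0% were. A call between the fractions was thus common, and nothing is read from the counts without 1 replicate. Leaving out 1 replicate left 1 to 3 member sites to compare for LF against MF. Differences in the 3′ UTR segments of Glg1 stayed called, at -2.41 to -1.75, -2.52 to -2.38 and -2.16 to -1.79. The unconverted share of Glg1, Surf4 and Use1 kept its side of the threshold under every alternative run. Glg1 was at 0.273 to 0.363 percentage points without 1 replicate but at 0.0564 over every listed cytosine. Hs2st1, with no value in the main test, passed over every listed cytosine (exact permutation, adjusted p = 0.0141), beside 40.4% of genes called higher. Where a call changed, the cause was not tested. Depth limits the Use1 site in exon 9 (at most 30 reads in total mRNA), the Hs2st1 site (165 to 442) and the distal Glg1 site in polysome mRNA (166 to 401).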
